A study of Homo sapiens and Rattus norvegicus with 26 samples.

Results

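Primary rat brain microvascular endothelial cells (rBMECs) were compared with Wnt-activated human CNS-like endothelial cells (hCECs), with both models kept under high shear. The comparison used 7 of the 26 libraries of the series, 4 of rBMECs and 3 of hCECs, which were chosen by the model and shear level in their labels and not by any measured value. The study placed 4 endothelial or blood–brain barrier (BBB) models in the same kind of microfluidic chip and sequenced polyA-enriched RNA after 72 h of flow, with high shear at 12 dyne/cm2. rBMECs grew out of brain microvessels of male Sprague–Dawley rats, were treated with puromycin to remove other cells, and were plated directly into the chip, with brains pooled within an isolation where several were needed. hCECs were derived from the human iPSC line IMR90-4 through endothelial progenitors that were enriched magnetically for CD34 or CD31. They were then cultured with FGF2, VEGF and CHIR99021, a GSK3 inhibitor that activates Wnt signaling and that stayed in the medium on the chip. The methods place replication at the isolation of rBMECs and the differentiation of hCECs, but the study describes fewer rat isolations than the labels give rBMEC replicates, so that some of the 4 may share an isolation and the spread between them may be partly technical. All hCEC libraries share 1 cell line. Species, cell origin, maturity and medium all differ between the groups and cannot be told apart here.

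The endothelium of brain capillaries forms the BBB. Its cells are sealed by tight junctions, carry few vesicles, take up nutrients through dedicated transporters and return many drugs to the blood through efflux pumps. Wnt ligands of the neural tissue act on endothelial receptors and, through β-catenin, induce and maintain this state, with *FOXF2*, *FOXQ1* and *LEF1* among the transcription factors that mark brain endothelium in the mouse. In cultured brain endothelium part of this program is lost.

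Levels are counts per kilobase of gene length, taken relative to the sum of these values over those genes of a library that were matched between the species. They were scaled by TMM over the 7 libraries. A gene can thus be compared between species in spite of different gene lengths. The 7 libraries held 25727387 to 32385661 counts, and 16513 genes were matched between the rat and human tables by their symbol. A matched gene is written with its human and rat symbol at its first mention. Of 12355 genes with enough counts, 3572 (28.9%) were higher in rBMECs and 3459 (28%) were higher in hCECs, at an adjusted p under 0.05 in edgeR's quasi-likelihood test with Benjamini–Hochberg adjustment and at least 2-fold. "Higher" below means that both limits were met, and log2 fold changes are rBMEC over hCEC. The groups did not overlap at all for 79.3% of the genes tested, so that differences between these models were common, and the counts for a gene list below stand beside these shares.

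The human tables list further, numbered copies of some genes, which the rat table does not, and this affected several BBB genes. Of the matched genes that averaged over 500 counts in the 8 rat libraries, 84 of 226 (37.2%) with numbered copies averaged under 3 counts in the 18 human libraries, against 31 of 7275 (0.426%) without copies. Of the 347 tested genes with copies, 314 were higher in rBMECs and 19 in hCECs, with a median log2 fold change of 7.19, against -0.05 for genes without copies. A low human value of such a gene is therefore uncertain, and these genes are named as such and not as genes that hCECs lack. With them left out, 27.6% of 12015 genes were higher in rBMECs and 28.1% in hCECs.

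Both groups carried endothelial markers. The summed level of 23 pan-endothelial genes ran from 17012 to 18165 in the hCEC libraries and from 11674 to 19169 in the rBMEC libraries, and 23 of 23 and 22 of 23 genes had a mean level of 1 or more. The lowest rBMEC sum was that of replicate 1, which also correlated less with the other rBMEC libraries (r of 0.963 to 0.974 across genes) than these did among themselves (0.987 to 0.994). In replicate 1 the summed level of 10 fibroblast markers was 479, against 81.4 to 151 in the other rBMEC libraries, and that of 8 smooth muscle markers was 948, against 241 to 663. In hCECs the corresponding sums were 19.1 to 49.6 and 709 to 859. The defining markers *GFAP* and *AQP4* of astrocytes, *SNAP25* and *RBFOX3* of neurons, *CSF1R* of microglia, and *DCN* of fibroblasts had mean levels of 0.589 or less in both models. *PTPRC* of leukocytes was likewise low, but it has a numbered copy in the human table and is uncertain there. Other markers were detected. The 9 neuronal markers had sums of 15.03 to 17.75 in hCECs and 0.849 to 2.33 in rBMECs. For 8 astrocyte markers the sums were 489.75 to 547.3 in hCECs and 46.5 to 74 in rBMECs. In each model only 2 of the 8 had a mean level of 1 or more, so that these sums do not stand for the list. For 10 epithelial markers they were 108 to 167 in hCECs and 0.914 to 9.6 in rBMECs. Of the tested members, 5 of 6 neuronal, 3 of 4 epithelial and 1 of 2 astrocyte genes were higher in hCECs. The other tested astrocyte gene was higher in rBMECs. Of all genes tested, 28% were higher in hCECs. In rBMECs, 0 of 9 neuronal and 1 of 10 epithelial markers had a mean level of 1 or more. A gene near 0 in rBMECs can pass the count filter only through hCECs. The neuronal and epithelial shares were therefore largely set by the filter. The summed level of 11 microglia and macrophage markers was 19.6 to 36.6 in hCECs and 4.36 to 7.40 in rBMECs, and the 1 member with enough counts to test, the lysosomal gene *CD68/Cd68*, was higher in hCECs (-2.49 ± 0.31, adjusted p = 1.2e-04). Of 7 smooth muscle genes, 6 were higher in rBMECs (5 of 6 without *MYH11*, which has a numbered copy), led by *TAGLN/Tagln*, encoding transgelin, at 652, 135, 419 and 171 in rBMECs and 1.2, 1.42 and 1.82 in hCECs, while smoothelin, *SMTN/Smtn*, was higher in hCECs at 677, 725 and 809.6 and made up most of their sum. The collagen genes *COL1A1/Col1a1* and *COL1A2/Col1a2* were highest in rBMEC replicate 1, at 149, 36.4, 26.4 and 17.8 and 130.1, 38.1, 23 and 16.5, and at 3.24 ± 2.43 and 3.21 ± 1.35 in hCECs (SD, n = 3). In hCECs, *RGS5/Rgs5*, a pericyte marker, stood at 156, 104 and 167. *NOTCH3/Notch3*, a pericyte and smooth muscle receptor, stood there at 30.9, 35.8 and 39.2, and *KRT18/Krt18*, an epithelial keratin, at 128, 92 and 148. Of the 10 pericyte markers 2, and of the 10 epithelial markers 5, had a mean level of 1 or more in hCECs. The defining epithelial markers *EPCAM* and *CDH1* had too few counts to test. These named genes therefore do not stand for their lists. The astrocyte gene *GJA1/Gja1*, encoding connexin 43, and the neuronal gene *GAD1/Gad1* were higher in hCECs (-3.53 ± 0.24, adjusted p = 4.0e-06 and -9.72 ± 0.62, adjusted p = 2.8e-06, the latter at -11.30 without rBMEC replicate 4). Since these are bulk libraries, fewer cells of a type and less RNA per cell cannot be told apart, and the part of other cells in the differences below was not tested beyond leaving out replicate 1.

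Genes of 11 lists for brain endothelium counted 203 tested members, of which 82 (40.4%) were higher in rBMECs and 46 (22.7%) were higher in hCECs, beside 28.9% and 28% of all genes. Without numbered copies the counts were 74 (37.9%) and 46 (23.6%) of 195, and without rBMEC replicate 1 they were 85 and 48. The median log2 fold change of the 203 genes was 0.45, against 0.01 for all genes tested. The share on the rBMEC side was above that of all genes and the share on the hCEC side below it. The genes are described by role below.

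**Figure D1:**
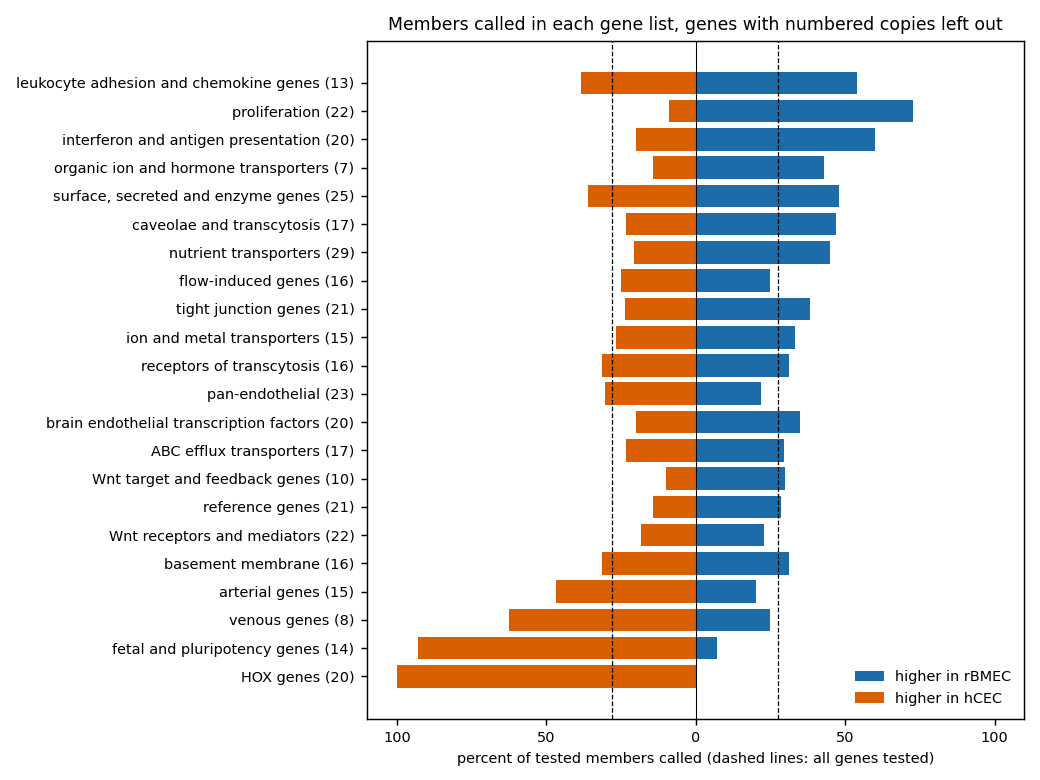
Share of the tested members of each gene list that were called higher in rBMECs (right) or in hCECs (left), in percent, with the number of tested members in parentheses and genes with numbered copies left out. Dashed lines mark the shares over all 12015 genes tested (27.6% and 28.1%). The lists of HOX and fetal genes lie almost wholly on the hCEC side and proliferation genes mostly on the rBMEC side.

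Among 23 pan-endothelial genes, 5 were higher in rBMECs and 7 in hCECs, and without rBMEC replicate 1 the counts were 8 and 7. Adhesion molecules of the junction did not all point one way. *CDH5/Cdh5*, encoding VE-cadherin, stood at 2244, 2119 and 2273 in hCECs, against 1077, 1214, 1207 and 1423 in rBMECs. Every hCEC library was above every rBMEC library, but the difference was less than 2-fold (log2 fold change -0.87 ± 0.14 (SE), adjusted p = 6.5e-04). *PECAM1/Pecam1* stood at 962, 866 and 1114 in hCECs, against 979, 2161, 2332 and 2213 in rBMECs, with rBMEC replicate 1 inside the hCEC range and the other 3 above it, and also stayed below 2-fold (log2 fold change 0.95 ± 0.30 (SE), adjusted p = 0.019). The same held for *TEK/Tek*, the angiopoietin receptor (0.88 ± 0.30, adjusted p = 0.026). Both passed 2-fold without rBMEC replicate 1 (1.16 and 1.10), *PECAM1* also without hCEC replicate 3 (1.05) and *TEK* without gene length (1.15). The largest difference upward was *EMCN/Emcn*, encoding the endothelial sialomucin endomucin, with 293, 874, 886 and 689.6 in rBMECs and 18.4, 15.7 and 15.8 in hCECs (log2 fold change 5.34 ± 0.43 (SE), adjusted p = 9.6e-06). *VWF/Vwf*, the clotting factor that endothelial cells store, was 26.3-fold higher in rBMECs (mean levels 1699.6 ± 477 in rBMECs and 63.5 ± 19.1 in hCECs, SD), and *ENG/Eng*, *ERG/Erg* and *NOS3/Nos3* were higher by log2 fold changes of 1.88, 1.47 and 1.22, although *ERG* fell under 2-fold without gene length (0.86). On the other side stood *KDR/Kdr*, the main VEGF receptor, at 2353, 2620.1 and 2418 in hCECs and at 112, 152, 131 and 156 in rBMECs. No libraries of the groups overlapped, and *KDR* was 18.2-fold higher in hCECs (log2 fold change -4.19 ± 0.17 (SE), adjusted p = 3.6e-07). *ICAM2/Icam2* was near 0 in rBMECs, with a highest level of 0.362, and 383, 409 and 417 in hCECs, and *ESAM/Esam* and *SOX7/Sox7* were higher in hCECs as well (-2.73 ± 0.32, adjusted p = 8.6e-05 and -1.80 ± 0.39, adjusted p = 0.0029).

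Of 29 nutrient transporters, 13 were higher in rBMECs and 6 in hCECs, with a median log2 fold change of 0.83. The most abundant of them in both models was *SLC2A1/Slc2a1*. This gene, encoding the GLUT1 glucose transporter of the barrier, stood at 1296, 833 and 1562 in hCECs, against 526, 1349, 1033 and 1112 in rBMECs. The ranges overlapped, rBMEC replicate 1 was the lowest of all 7 libraries, and the difference was within the spread of the replicates (log2 fold change -0.31 ± 0.33 (SE), adjusted p = 0.4). Several amino acid transporters lay far apart. *SLC7A5/Slc7a5*, encoding LAT1, which carries large neutral amino acids and L-DOPA, had levels of 4.97, 2.79 and 6.99 in hCECs, against 198, 159.5, 165 and 142 in rBMECs. All rBMEC libraries were far above all hCEC libraries, a 33.3-fold difference (log2 fold change 5.06 ± 0.33 (SE), adjusted p = 3.4e-06). Its partner *SLC3A2/Slc3a2*, the heavy chain that brings LAT1 to the membrane, gave no detectable difference (0.01 ± 0.18, adjusted p = 0.97, mean levels 406 ± 91.1 in rBMECs and 399 ± 41.6 in hCECs).

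Glutamine, glutamate and glycine carriers were near the detection limit in hCECs. *SLC38A3/Slc38a3*, a glutamine transporter, stood at 62.6, 184, 113 and 115 in rBMECs and 0.069, 0.154 and 0 in hCECs, the latter from 2, 4 and 0 counts. *SLC1A1/Slc1a1*, the glutamate transporter EAAT3, stood at 11.7, 75.3, 47.7 and 67.8 in rBMECs and 0.0461, 0.411 and 1.39 in hCECs. Both were separated without overlap (log2 fold change 10.56 ± 0.66 (SE), adjusted p = 2.6e-06, and 6.35 ± 0.99, adjusted p = 4.6e-04), and rBMEC replicate 1 was the lowest of the rat libraries for each. *SLC6A9/Slc6a9*, which carries glycine, was higher in rBMECs (5.88 ± 1.00, adjusted p = 7.7e-04), with its highest level, 29.9, in replicate 1 and 4.06 to 7.14 in the others. *SLC38A5/Slc38a5* was higher in rBMECs by 2.55 on the log2 scale but low in both models (1.14, 6.87, 3.27 and 8.15 in rBMECs and 0.567, 1.05 and 0.813 in hCECs, adjusted p = 0.0095). The cationic amino acid transporter *SLC7A1/Slc7a1* and the taurine transporter *SLC6A6/Slc6a6* were expressed in both models and were 5.4-fold and 2.07-fold higher in rBMECs. *SLC6A6* fell just under 2-fold without rBMEC replicate 2 or hCEC replicate 2 (log2 fold change 0.96 for each). Leaving out single libraries moved the log2 fold change of *SLC38A3* to 11.52 (without hCEC replicate 2), of *SLC1A1* to 7.79 (hCEC replicate 3) and of *SLC6A9* to 6.94 (hCEC replicate 1) or 4.86 (rBMEC replicate 1).

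Vitamin, lipid and monocarboxylate carriers went in both directions. *SLC19A3/Slc19a3*, a thiamine transporter, and *SLC52A3/Slc52a3*, a riboflavin transporter, had mean levels of 7.14 ± 3.84 and 13.4 ± 7.64 in rBMECs (SD, n = 4) and of 0.248 and 0.107 in hCECs, and both were higher in rBMECs (adjusted p = 2.3e-04 and 1.4e-04). In contrast, the riboflavin transporter *SLC52A2/Slc52a2* was 7.11-fold higher in hCECs (log2 fold change -2.83 ± 0.14 (SE), adjusted p = 9.7e-07). Without gene length the log2 fold change of *SLC52A2* was -0.87. *MFSD2A/Mfsd2a*, the carrier of lysophosphatidylcholine with docosahexaenoic acid, was low in both models at 8.25, 3.07, 3.41 and 3.43 in rBMECs and 1.55, 1.12 and 2.96 in hCECs and did not pass the test (log2 fold change 1.26 ± 0.52 (SE), adjusted p = 0.052), except without hCEC replicate 3 (1.74) or gene length (1.65). *SLC16A1/Slc16a1*, encoding the lactate and ketone carrier MCT1, passed the p limit toward hCECs without reaching 2-fold (-0.95 ± 0.27, adjusted p = 0.011), which it did without hCEC replicate 3 (-1.08), rBMEC replicate 1 (-1.18) or gene length (-1.05). The choline transporter *SLC44A1/Slc44a1*, the nucleoside transporter *SLC29A1/Slc29a1* and the fatty acid binding protein *FABP5/Fabp5* were higher in hCECs, by 4.96-fold, 12.9-fold and 17-fold. For *FABP5* the log2 fold change went from -4.08 to -4.78 without rBMEC replicate 1. The cationic amino acid transporter *SLC7A3* had no count in hCECs and 8, 1, 5 and 5 counts in rBMECs, too few to test.

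Of 7 organic ion and hormone transporters, 3 were higher in rBMECs and 1 in hCECs. *SLCO1C1/Slco1c1*, the thyroxine transporter OATP1C1 of brain endothelium, had no count in any hCEC library and levels of 2.5, 22.6, 30.6 and 13.5 in rBMECs. Against a floor of 3 counts per library, it was at least 902-fold higher in rBMECs (adjusted p = 4.0e-04), and replicate 1 was again the lowest. *SLCO2B1/Slco2b1*, another organic anion carrier, was present in both models at 19.4, 16.2 and 29.9 in hCECs, against 27.3, 216, 157 and 157 in rBMECs. rBMEC replicate 1 lay within the hCEC range, and the other 3 were far above it (log2 fold change 2.65 ± 0.63 (SE), adjusted p = 0.0047). *SLC22A5/Slc22a5*, the carnitine transporter OCTN2, stood at 13.1, 21.4, 17.5 and 21.3 in rBMECs and 1.08, 0.769 and 0.352 in hCECs and was 24.3-fold higher in rBMECs (log2 fold change 4.61 ± 0.37 (SE), adjusted p = 1.1e-05). *Slco1a4*, the rat organic anion transporter OATP1A4, has no human gene of the same symbol and was set beside its human relative *SLCO1A2* after its values were seen. The rat gene had 476, 4585, 2364 and 3060 counts in rBMECs and the human gene 0, 5 and 0 counts in hCECs. *SLC22A8*, the organic anion transporter OAT3, had 3, 0 and 2 counts in hCECs and 4, 10, 2 and 3 counts in rBMECs and was not tested.

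Among 15 ion and metal transporters, 5 were higher in rBMECs and 4 in hCECs. *ATP10A/Atp10a*, a phospholipid flippase that is enriched in mouse brain endothelium, had even levels of 81.9, 78.5, 81.7 and 75.7 in rBMECs and no count in hCECs, which made it at least 2458-fold higher in rBMECs. Genes of a pair of metal exporters were higher in rBMECs as well. The iron exporter ferroportin, *SLC40A1/Slc40a1*, stood at 403, 244, 242 and 223 in rBMECs and 25.8, 34.9 and 20.7 in hCECs (log2 fold change 3.34 ± 0.29 (SE), adjusted p = 1.6e-05), and the zinc exporter *SLC30A1/Slc30a1* was 4.86-fold higher (log2 fold change 2.28 ± 0.25 (SE), adjusted p = 6.3e-05). The potassium channel *KCNJ2/Kcnj2* was 2.07-fold higher (1.05 ± 0.37, adjusted p = 0.031), although rBMEC replicate 1 lay below the hCEC libraries. That call was lost when any other library was left out (log2 fold changes of 0.90 to 1.15). Those higher in hCECs included the magnesium transporter *SLC41A1/Slc41a1*, the zinc and manganese importer *SLC39A14/Slc39a14* and *ATP1B1/Atp1b1*, a β subunit of the sodium pump (log2 fold changes of -1.42, -1.70 and -3.69). The call for *SLC39A14* was lost without hCEC replicate 2 (-1.64) or 3 (-1.68) or rBMEC replicate 4 (-1.55) and without gene length (-0.98). Without rBMEC replicate 1, the values were -2.57 for *SLC39A14* and -4.52 for *ATP1B1*.

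P-glycoprotein, the main drug efflux pump of the barrier, is encoded by 1 gene in human (*ABCB1*) and by a pair of genes in the rat (*Abcb1a* and *Abcb1b*). Its RNA was nearly absent from hCECs. No symbol matched, and the levels of the rat genes were summed. Numbered copies were looked up for matched genes only, so that *ABCB1* was not checked for them. The summed level was 562, 526, 563 and 672 in rBMECs, and *ABCB1* was at 0.225, 0.478 and 0.508 in hCECs, from 10, 19 and 21 counts. The difference in mean log2 level was 10.57, or 1523-fold, and the exact two-sided permutation test gave p = 0.0286, the smallest value that 35 arrangements of 4 and 3 libraries allow. In the rat cells both genes contributed, with levels of 298 to 438 for *Abcb1a* and 116 to 264 for *Abcb1b*, whose highest value was in replicate 1.

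Of 19 matched ABC transporters, 7 were higher in rBMECs and 4 in hCECs (5 and 4 of 17 without numbered copies). *ABCG2/Abcg2*, encoding the pump BCRP, went against P-glycoprotein. Its levels were 171, 171 and 149 in hCECs, against 22.8, 65.9, 64 and 40.9 in rBMECs, without overlap, and it was 3.43-fold higher in hCECs (log2 fold change -1.78 ± 0.33 (SE), adjusted p = 0.0012). *ABCC4/Abcc4*, encoding MRP4, stood at 97.1, 117, 112 and 92.6 in rBMECs and 4.01, 5.58 and 3.93 in hCECs and was 22.9-fold higher in rBMECs (log2 fold change 4.52 ± 0.18 (SE), adjusted p = 3.6e-07). The sterol exporter *ABCG1/Abcg1* (4.30 ± 0.30, adjusted p = 4.7e-06) and *ABCA7/Abca7* (3.18 ± 0.25, adjusted p = 9.2e-06) were higher in rBMECs too. *ABCC10/Abcc10*, encoding MRP7, was higher in hCECs at 44.9, 40.2 and 46.7 in hCECs, against 6.88, 7.78, 6.56 and 7.49 in rBMECs (log2 fold change -2.63 ± 0.11 (SE), adjusted p = 3.5e-07). *ABCC1/Abcc1*, encoding MRP1, has a numbered copy in the human table to which 289, 246 and 266 counts were assigned, beside 295, 217 and 280 on the gene itself. Its log2 fold change was 3.42 from the gene alone and 2.41 with the copy added.

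**Figure D2:**
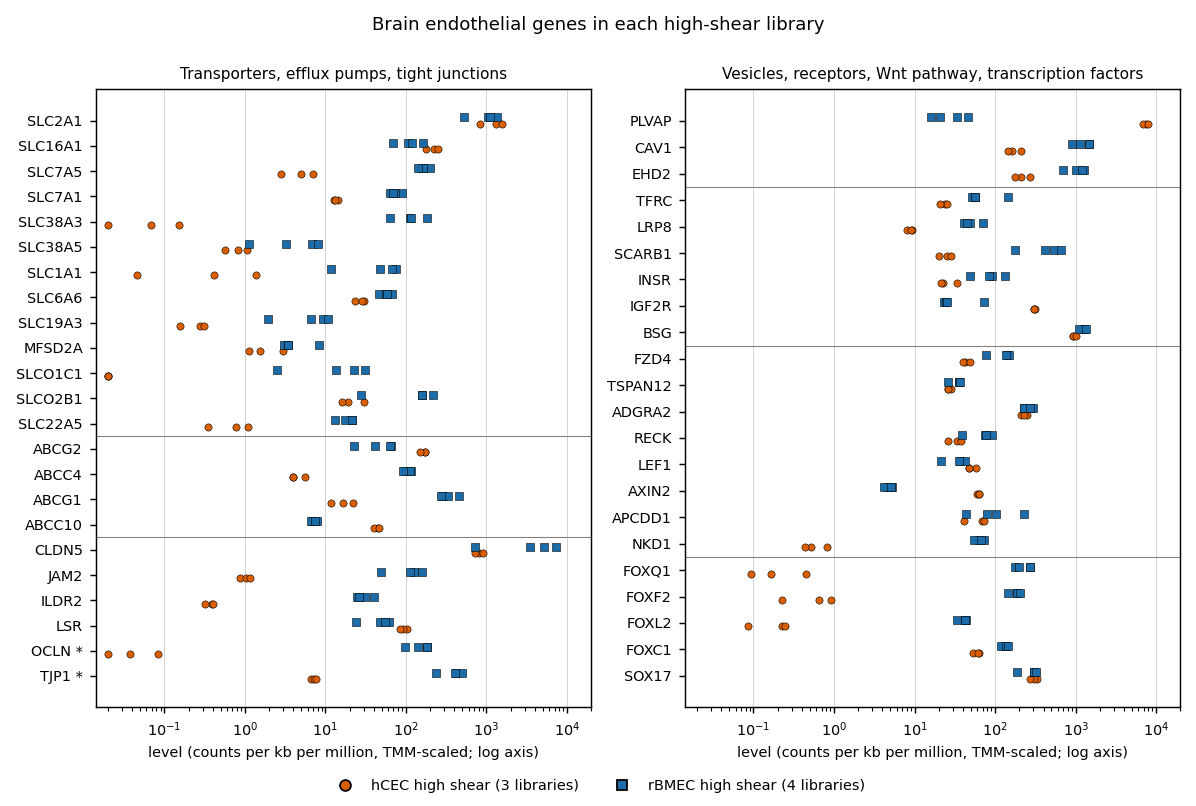
Levels of brain endothelial genes in each high-shear library, scaled by gene length and TMM as in the text, on a log axis. Shown are 3 hCEC libraries (circles) and 4 rBMEC libraries (squares). Values of 0 are drawn at the left edge, and an asterisk marks genes with numbered copies in the human table. *SLC2A1*, *ADGRA2* and *SOX17* overlap between the models, whereas *FOXQ1*, *FOXF2* and *SLC38A3* are near 0 in hCECs and *PLVAP* is far higher in hCECs.

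Of 24 tight junction genes, 11 were higher in rBMECs and 5 in hCECs, or 8 and 5 of 21 without numbered copies. *CLDN5/Cldn5*, the main claudin of endothelial tight junctions, stood at 816, 715 and 898 in hCECs, against 726, 5176, 7212 and 3461 in rBMECs. The hCEC levels lay close together, rBMEC replicate 1 fell among them, and the other rat libraries were several-fold higher. Over all libraries *CLDN5* was 5.03-fold higher in rBMECs (log2 fold change 2.33 ± 0.65 (SE), adjusted p = 0.011), and the log2 fold change was 2.68 without rBMEC replicate 1. Without gene length it was 1.43, and the call was lost. *JAM2/Jam2*, a junctional adhesion molecule, had levels of 49.1, 125, 156 and 111 in rBMECs and 0.871, 1.04 and 1.16 in hCECs (log2 fold change 6.73 ± 0.46 (SE), adjusted p = 4.3e-06). Its relative *JAM3/Jam3* went the other way at 320.2, 304 and 345 in hCECs, against 50.7, 37.3, 26.6 and 28.7 in rBMECs (log2 fold change -3.19 ± 0.23 (SE), adjusted p = 5.2e-06). At tricellular contacts 1 gene was higher on each side. *ILDR2/Ildr2*, or angulin-3, was 80.6-fold higher in rBMECs (39.8, 24.6, 30.8 and 26 in rBMECs and 0.39, 0.321 and 0.397 in hCECs, adjusted p = 3.0e-07), and *LSR/Lsr*, or angulin-1, was 2.01-fold higher in hCECs (104, 91.1 and 83.7 in hCECs, against 24.1, 48.2, 61.2 and 54.3 in rBMECs, adjusted p = 0.0099). *LSR* fell under 2-fold without hCEC replicate 1 (log2 fold change -0.91) or rBMEC replicate 1 (-0.79), and without gene length (-0.41). Also higher in hCECs were *CLDN15/Cldn15* and the polarity gene *PARD6A/Pard6a* (-3.87 ± 0.30, adjusted p = 7.5e-06 and -2.52 ± 0.61, adjusted p = 0.0052).

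Occludin, ZO-1 and tricellulin could not be compared. *OCLN/Ocln* had levels of 98.8, 181, 141 and 181 in rBMECs and 5, 2 and 0 counts in hCECs, and *MARVELD2/Marveld2*, encoding tricellulin, had 22.7, 31.9, 25.9 and 35.5 in rBMECs and 0 counts in hCECs. The genes are neighbours on human chromosome 5 (chr5:69415116-69444330 for *MARVELD2* and chr5:69492547-69558104 for *OCLN*, GRCh38), and both have a numbered copy. *OCLN* was also near 0 in hBMEC-like cells, a model used for its tight barrier, where its highest level was 1.34. *TJP1/Tjp1*, encoding ZO-1, had 533, 521 and 568 counts on the gene and 601, 513 and 608 on its copy in hCECs, and its log2 fold change fell from 5.73 to 4.69 with the copy added.

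Genes of caveolae and transcytosis gave 8 higher in rBMECs and 4 in hCECs of 17, or 7 and 2 without gene length. The largest single difference was *PLVAP/Plvap*, which forms the diaphragms of fenestrae and caveolae and is lost from brain endothelium as the barrier matures. It stood at 7526, 6957 and 7816 in hCECs, against 33.6, 16.2, 45.8 and 20.9 in rBMECs, a 259-fold difference without overlap (log2 fold change -8.02 ± 0.42 (SE), adjusted p = 1.2e-06). Other genes of caveolae were higher in the rat cells instead. *CAV1/Cav1*, encoding caveolin 1, had levels of 896, 1464, 1126 and 1479 in rBMECs and 161, 146 and 208 in hCECs (log2 fold change 2.83 ± 0.24 (SE), adjusted p = 1.2e-05). *EHD2/Ehd2* and *EHD4/Ehd4*, ATPases of the caveolar neck and of endosomes, and *PACSIN3/Pacsin3* were higher in rBMECs (2.23 ± 0.25, adjusted p = 6.8e-05, 1.98 ± 0.20, adjusted p = 4.2e-05 and 2.64 ± 0.38, adjusted p = 3.1e-04). The clathrin adaptor subunit *AP2A1/Ap2a1* and *DNM2/Dnm2*, encoding dynamin 2, were just past 2-fold toward hCECs (log2 fold changes of -1.14 and -1.02). At low shear both fell under it (-0.90 and -0.57), and *DNM2* also without hCEC replicate 3 (-0.93), rBMEC replicate 1 (-0.97) or gene length (-0.56). *PACSIN2/Pacsin2* was higher in hCECs only with gene length taken into account (-1.62 with and 0.02 without it).

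Of 17 receptors that carry ligands across brain endothelium or take up lipoproteins, 6 were higher in rBMECs and 5 in hCECs (5 and 5 of 16 without *AGER*, which has numbered copies). *TFRC/Tfrc*, the transferrin receptor, stood at 23.9, 25.2 and 20.7 in hCECs, against 143, 52.4, 56.3 and 57.1 in rBMECs. All rBMEC libraries were above the hCEC libraries, with replicate 1 the highest, and the mean difference was 3.27-fold (log2 fold change 1.71 ± 0.38 (SE), adjusted p = 0.0033). *INSR/Insr*, the insulin receptor, and *LRP8/Lrp8*, an apolipoprotein E receptor, were 3.37-fold and 5.7-fold higher in rBMECs (adjusted p = 0.0015 and 1.3e-05). The HDL receptor *SCARB1/Scarb1* was further apart (176, 543, 659 and 419 in rBMECs and 25.2, 28.7 and 20 in hCECs, log2 fold change 4.16 ± 0.46 (SE), adjusted p = 6.0e-05). *IGF2R/Igf2r*, the mannose 6-phosphate receptor, was 8.48-fold higher in hCECs at 307, 309 and 306 in hCECs, against 73, 23.5, 24.8 and 25.4 in rBMECs (log2 fold change -3.08 ± 0.43 (SE), adjusted p = 2.3e-04, or -3.67 without rBMEC replicate 1). The Fc receptor *FCGRT/Fcgrt* and the leptin receptor *LEPR/Lepr* were higher in hCECs as well (-1.15 ± 0.33, adjusted p = 0.013 and -2.12 ± 0.43, adjusted p = 0.0021), with *FCGRT* under 2-fold without rBMEC replicate 1 (-0.92). In contrast, *BSG/Bsg*, or basigin, differed by less than 2-fold at mean levels of 1243 ± 101 in rBMECs and 955 ± 38.1 in hCECs.

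Receptors and mediators of Wnt signaling were expressed in both models, with 5 of 22 higher in rBMECs and 4 in hCECs, or 5 and 6 without rBMEC replicate 1. *ADGRA2/Adgra2*, encoding GPR124, had overlapping levels of 253, 208 and 227 in hCECs, against 231, 295, 227 and 271 in rBMECs (log2 fold change 0.14 ± 0.14 (SE), adjusted p = 0.38). *RECK/Reck*, its partner in the Wnt7 receptor complex, was 2.1-fold higher in rBMECs (34.1, 26.4 and 38.2 in hCECs, against 39.3, 90.8, 74.9 and 76.3 in rBMECs, adjusted p = 0.0066), but fell under 2-fold without rBMEC replicate 2 (log2 fold change 0.92) or hCEC replicate 2 (0.94) and without gene length (0.82). Likewise *FZD4/Fzd4*, the Frizzled of Norrin signaling, was 2.84-fold higher in rBMECs (log2 fold change 1.51 ± 0.23 (SE), adjusted p = 3.8e-04), while its coactivator *TSPAN12/Tspan12* did not pass the test (0.29 ± 0.14, adjusted p = 0.08) and its coreceptor *LRP5/Lrp5* was 2.25-fold higher in hCECs (log2 fold change -1.17 ± 0.17 (SE), adjusted p = 3.2e-04). The value of *TSPAN12* depends on length, with a log2 fold change of 2.37 without it. Of the factors that bind β-catenin on DNA, *TCF7/Tcf7* was higher in rBMECs (4.29 ± 0.25, adjusted p = 2.0e-06), *TCF7L1/Tcf7l1* was higher in hCECs (-1.44 ± 0.17, adjusted p = 1.1e-04) and *LEF1/Lef1* stayed within 2-fold at 48.1, 57.5 and 47.1 in hCECs, against 21.5, 36.2, 42.9 and 35.9 in rBMECs (-0.60 ± 0.21, adjusted p = 0.03). *FZD6/Fzd6* and *CTNNB1/Ctnnb1*, encoding β-catenin, were higher in rBMECs (1.48 ± 0.28, adjusted p = 0.0015 and 1.11 ± 0.22, adjusted p = 0.0019, the latter at 0.96 without rBMEC replicate 4), and *DVL2/Dvl2* and *BCL9/Bcl9* in hCECs (-1.40 ± 0.12, adjusted p = 1.3e-05 and -1.08 ± 0.12, adjusted p = 5.1e-05). The calls for *TCF7L1* and *BCL9* were lost without gene length (-0.85 and -0.47).

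Targets and feedback inhibitors of the pathway split. *AXIN2/Axin2*, the general negative feedback gene of β-catenin signaling, was even within each model at 60.3, 62.4 and 62.7 in hCECs, against 5.23, 4.74, 4.16 and 5.15 in rBMECs. It was 13-fold higher in hCECs (log2 fold change -3.70 ± 0.11 (SE), adjusted p = 1.8e-07). In hECs, human cells from the same progenitors that were cultured without CHIR99021, its mean level was 6. The part of the inhibitor in the difference from rBMECs was not tested. *NKD1/Nkd1*, another feedback inhibitor, went the other way at 62.4, 71.9, 54.6 and 66 in rBMECs and 0.511, 0.431 and 0.817 in hCECs, a 107-fold difference (log2 fold change 6.74 ± 0.28 (SE), adjusted p = 3.6e-07). *SP5/Sp5* and *DKK2/Dkk2* were low in rBMECs, at mean levels of 5.84 ± 2.93 and 7.14 ± 3.92, and near 0 in hCECs (0.0502 and 0.263). *APCDD1/Apcdd1*, a Wnt inhibitor of brain endothelium, overlapped between the models at 69.5, 72.6 and 41.3 in hCECs, against 43.2, 102, 232 and 80.1 in rBMECs (log2 fold change 0.88 ± 0.52 (SE), adjusted p = 0.15), and passed the limits only without rBMEC replicate 1 (1.14). *SOX17/Sox17*, an endothelial factor linked to Wnt signaling, also overlapped between the models (-0.13 ± 0.19, adjusted p = 0.53). *NKD2/Nkd2* was higher in rBMECs but has a numbered copy.

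Of 20 transcription factors of brain endothelium, 7 were higher in rBMECs and 4 in hCECs. The forkhead genes set the models apart. *FOXQ1/Foxq1* stood at 269, 179, 196 and 269 in rBMECs and 0.166, 0.0929 and 0.447 in hCECs, where hCECs had 4, 2 and 10 counts, and *FOXF2/Foxf2* at 145, 188, 189.8 and 204 in rBMECs and 0.226, 0.655 and 0.922 in hCECs. Neither overlapped, and the differences were 935-fold and 299-fold (log2 fold change 9.87 ± 0.41 (SE), adjusted p = 3.7e-07, or 10.69 without hCEC replicate 3, and 8.22 ± 0.36, adjusted p = 5.0e-07). In human these genes are neighbours on chromosome 6, *FOXQ1* at chr6:1312098-1314758 and *FOXF2* at chr6:1389576-1395603, followed by *FOXC1/Foxc1* at chr6:1609915-1613897 (GRCh38). *FOXC1*, which acts in the vascular development of the brain, was expressed in both models at 62.9, 53.3 and 60.8 in hCECs, against 133, 119, 138 and 143 in rBMECs and was 2.22-fold higher in rBMECs (log2 fold change 1.15 ± 0.11 (SE), adjusted p = 2.4e-05). *FOXL2/Foxl2* was likewise near 0 in hCECs at 0.228, 0.0848 and 0.245 and even in rBMECs at 33.9, 42.6, 43.4 and 42.7 (log2 fold change 7.69 ± 0.32 (SE), adjusted p = 3.9e-07).

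In hECs the mean level of *LEF1* was 16.9, against 54.2 in hCECs on the same scale over 26 libraries. *NR3C1/Nr3c1*, the glucocorticoid receptor, was 4.71-fold higher in rBMECs (log2 fold change 2.23 ± 0.14 (SE), adjusted p = 2.9e-06). Higher in hCECs were *HOPX/Hopx*, *RXRA/Rxra*, a retinoid receptor, *BCL6B/Bcl6b* and *MECOM/Mecom* (log2 fold changes of -3.96, -2.37, -1.86 and -1.80), but the log2 fold change of *MECOM* was -0.07 without gene length.

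Of 26 surface, secreted and enzyme genes of brain capillaries, 13 were higher in rBMECs and 9 in hCECs (12 and 9 of 25 without numbered copies). *VWA1/Vwa1*, a matrix protein, stood at 775, 786, 1056 and 695 in rBMECs and 1.24, 0.663 and 1.66 in hCECs, a 684-fold difference (log2 fold change 9.42 ± 0.39 (SE), adjusted p = 3.8e-07). *PGLYRP1/Pglyrp1*, a peptidoglycan recognition protein, varied within rBMECs from 55.4 to 407 and was at or under 1.18 in hCECs (log2 fold change 8.07 ± 1.09 (SE), adjusted p = 2.1e-04), with values of 8.73 without hCEC replicate 3 and 7.34 without rBMEC replicate 4. The chemokine *CXCL12/Cxcl12*, the matrix proteins *SPARCL1/Sparcl1* and *SPOCK2/Spock2* and the carbonic anhydrase *CA4/Ca4* were higher in rBMECs, with log2 fold changes of 6.69, 5.60, 5.44 and 3.29. *ITM2A/Itm2a*, a membrane protein of brain endothelium, was expressed in both and 2.43-fold higher in rBMECs (log2 fold change 1.28 ± 0.18 (SE), adjusted p = 2.7e-04). *ACE/Ace*, the angiotensin-converting enzyme, was at 19.4 in rBMEC replicate 1 and 178 to 360 in the others, against 8.24, 4.96 and 8.86 in hCECs (log2 fold change 4.86 ± 0.93 (SE), adjusted p = 0.0015).

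Classical capillary enzymes went in opposite directions. *ALPL/Alpl*, the alkaline phosphatase used to stain brain capillaries, had levels of 6.08, 14.3, 6.87 and 13.8 in rBMECs and 0.507, 0.087 and 0.461 in hCECs (log2 fold change 4.81 ± 0.62 (SE), adjusted p = 1.5e-04). γ-Glutamyl transferase, *GGT1/Ggt1*, and aminopeptidase N, *ANPEP/Anpep*, which are also found on brain capillaries, were near 0 in the rat cells instead. *GGT1* stood at 17.1, 8.22 and 12.3 in hCECs, against 0.5, 0, 0.159 and 0.0546 in rBMECs and *ANPEP* at 23.3, 17.2 and 39.9 in hCECs, against 0.158, 0.0803, 0.387 and 0.0478 in rBMECs, without overlap (-6.09 ± 0.91, adjusted p = 3.7e-04 and -7.36 ± 0.58, adjusted p = 8.8e-06). Without 1 rat library the values reached -7.48 (replicate 1) and -8.08 (replicate 3). *CYP1A1/Cyp1a1* and *CYP1B1/Cyp1b1*, xenobiotic-metabolizing enzymes induced through the aryl hydrocarbon receptor, were 5.98-fold and 2.06-fold higher in hCECs (adjusted p = 4.3e-04 and 0.016), with rBMEC replicate 1 the highest of the rat libraries for both. The call for *CYP1B1* was lost without hCEC replicate 1 (log2 fold change -0.86) and without rBMEC replicate 2 (-0.96), 3 (-0.96) or 4 (-0.91), and without gene length (-0.65). *IFITM3/Ifitm3* and *GGT5/Ggt5* were higher in hCECs too (-4.02 ± 0.24, adjusted p = 2.0e-06 and -5.58 ± 0.45, adjusted p = 1.0e-05).

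To list what the human model lacks, the genes of the brain endothelial lists with a mean level of at least 5 in rBMECs and under 0.5 in hCECs were collected. They numbered 16, of which *OCLN*, *MARVELD2* and *NKD2* have numbered copies and are uncertain. The other 13 were the transporters *SLC38A3*, *SLC52A3*, *SLC19A3*, *SLC6A9*, *SLCO1C1* and *ATP10A*, the transcription factors *FOXQ1*, *FOXL2* and *SP5*, the tricellular gene *ILDR2*, and *DKK2*, *SPARCL1* and *ALPL*. *ABCB1*, which has no matched rat symbol and was not checked for numbered copies, had a mean of 0.404 and would join them. In the reverse direction, only *GGT1* and *ANPEP* met these limits. How many of all matched genes meet them in each direction is not given here. The larger number on the rBMEC side therefore cannot be set against a background, and the lists were chosen with earlier results known.

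Just outside the limits stood *TCF7*, *CXCL12*, *NKD1*, *FOXF2*, *SLC1A1*, *PGLYRP1* and *SLC22A5*, with hCEC means of 0.52, 0.533, 0.587, 0.601, 0.615, 0.677 and 0.735, and *SLC38A5*, with an rBMEC mean of 4.86. Of the 13 genes without copies, 3 reached a level of 5 in a library of another human model, all in hBMEC-like cells, at 82.6 for *ALPL*, 23.4 for *SLC6A9* and 9.47 for *SLC19A3*. The other 10 stayed under 5 in every hEC and hBMEC-like library, among them *FOXQ1* with a highest level of 0.894 and *SLCO1C1* with 0.0265. The nutrient transporter *SLC7A5*, low in hCECs, had a mean of 862 in hBMEC-like cells and 4.46 in hECs.

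**Figure D3:**
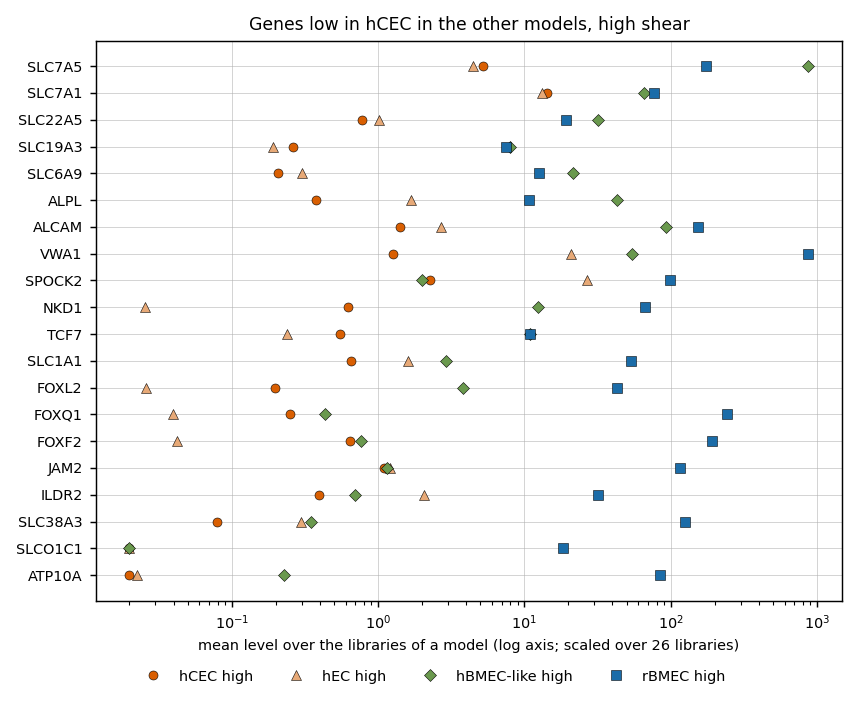
Mean level of genes that were low in hCECs, in the 4 models under high shear, on a log axis and scaled over all 26 libraries. hBMEC-like cells reached or passed the rBMEC level for *SLC7A5*, *SLC22A5*, *SLC19A3*, *SLC6A9* and *ALPL*, whereas *FOXQ1*, *FOXF2*, *JAM2*, *SLC38A3*, *SLCO1C1* and *ATP10A* were low in all 3 human models. Values of 0 are drawn at the left edge.

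Genes of vessel zones gave more calls on the hCEC side, with 4 of 16 arterial genes higher in rBMECs and 7 in hCECs, and 2 of 8 venous genes higher in rBMECs and 5 in hCECs. The arterial connexins *GJA4/Gja4* and *GJA5/Gja5* were 25.7-fold and 25.1-fold higher in hCECs, with *GJA4* at 2177, 1773 and 1855 in hCECs, against 38, 62.2, 148 and 58.2 in rBMECs (log2 fold change -4.68 ± 0.45 (SE), adjusted p = 2.9e-05). The Notch genes *HEY1/Hey1* and *JAG2/Jag2* were higher in hCECs as well (-1.90 ± 0.47, adjusted p = 0.006 and -1.22 ± 0.16, adjusted p = 1.8e-04). Of the venous genes higher in hCECs, *NR2F2/Nr2f2*, the COUP-TFII factor of venous identity, stood at 342, 346 and 299 in hCECs, against 12.9, 23, 27.1 and 17.8 in rBMECs (log2 fold change -4.05 ± 0.25 (SE), adjusted p = 2.4e-06), and *APLNR/Aplnr*, *NRP2/Nrp2* and *TLL1/Tll1* were others (-8.90 ± 0.73, adjusted p = 1.1e-05, -4.57 ± 0.33, adjusted p = 5.2e-06 and -2.92 ± 0.62, adjusted p = 0.0027). *APLNR* stood at 604, 578 and 873 in hCECs, against 0.516, 1.11, 3.72 and 0.623 in rBMECs, and its log2 fold change was -9.87 without rBMEC replicate 3, as that of *TLL1* was -3.82 without rBMEC replicate 1. In rBMECs the arterial genes *MGP/Mgp*, *CXCR4/Cxcr4* and *BMX/Bmx* were higher (12.11 ± 0.68, adjusted p = 1.6e-06, 1.77 ± 0.43, adjusted p = 0.0052 and 2.13 ± 0.40, adjusted p = 0.0013), *MGP* at 12.73 without hCEC replicate 3. *NOTCH4/Notch4*, the endothelial Notch receptor, had 10, 3 and 14 counts on the gene and 684, 501 and 630 on its copies in hCECs, so that its log2 fold change of 11.08 became 5.0 with the copies added. *LYVE1/Lyve1*, a marker of lymphatic and some other endothelium, stood at 469.7, 705 and 621 in hCECs, against 2.51, 2.69, 7.55 and 2.98 in rBMECs (log2 fold change -7.28 ± 0.45 (SE), adjusted p = 2.6e-06), whereas the lymphatic factor *PROX1/Prox1* was low in both, at mean levels of 2.82 in hCECs and 0.0791 in rBMECs.

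Of 13 genes of leukocyte adhesion and chemokines, 7 were higher in rBMECs and 5 in hCECs, and 1 passed in neither direction. *VCAM1/Vcam1*, the receptor of the leukocyte integrin VLA-4, had no count in hCECs and levels of 12.9, 49.6, 34.4 and 57.2 in rBMECs, at least 349-fold higher. *ALCAM/Alcam*, *CX3CL1/Cx3cl1*, or fractalkine, and the interleukin receptor *IL1R1/Il1r1* were 109-fold, 63.7-fold and 6.58-fold higher in rBMECs. *ICAM1/Icam1* went the other way at 395, 377 and 326 in hCECs, against 133, 128, 80.9 and 190.2 in rBMECs (log2 fold change -1.48 ± 0.25 (SE), adjusted p = 7.7e-04), and the chemokine *CCL2/Ccl2* was 46.4-fold higher in hCECs (log2 fold change -5.53 ± 0.49 (SE), adjusted p = 1.7e-05). Higher in hCECs were also *TNFRSF1B/Tnfrsf1b* and *SELP/Selp*, encoding P-selectin (-3.11 ± 0.14, adjusted p = 5.5e-07 and -2.14 ± 0.74, adjusted p = 0.027). The call for *SELP* was lost without hCEC replicate 2 (-1.82) or 3 (-2.23) and without rBMEC replicate 3 (-1.95) or 4 (-2.03), while without rBMEC replicate 1 it was held at -3.14.

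Genes of the interferon response and antigen presentation were mostly higher in rBMECs, with 19 of 27 on that side and 4 on the other, or 12 and 4 of 20 without the 7 genes with numbered copies. *IFIT2/Ifit2* and *IFIT3/Ifit3*, induced by interferon, were 84.5-fold and 11.5-fold higher in rBMECs. *ISG15/Isg15* was higher in hCECs (log2 fold change -1.19 ± 0.27 (SE), adjusted p = 0.004), but under 2-fold without gene length (-0.80). *TAP1/Tap1*, *TAP2/Tap2*, *PSMB8/Psmb8* and *PSMB9/Psmb9*, which process peptides for MHC class I, had rBMEC means of 78.1, 96.1, 76.2 and 94.1 and hCEC means at or under 0.192, but they lie in the region of human chromosome 6 whose genes have numbered copies, and are uncertain.

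The positional and fetal genes that could be tested were nearly all higher in hCECs. Of 38 matched HOX genes, 20 had enough counts to test, and of these 20 were higher in hCECs and 0 in rBMECs. Their mean levels were from 0 to 2.1 in rBMECs, the highest that of *HOXD8/Hoxd8*. A gene near 0 in rBMECs can pass the count filter only through hCECs, so that this share was largely set by the filter. *HOXB9/Hoxb9*, *HOXB8/Hoxb8*, *HOXB7/Hoxb7* and *HOXB6/Hoxb6* had no count in rBMECs and stood at 189, 214 and 131, at 70.2, 78.8 and 61.5, at 143, 153 and 149 and at 48.4, 53.9 and 53.3 in hCECs. With the floor of 3 counts per library they were at least 545-fold, 497-fold, 586-fold and 264-fold higher in hCECs. These genes, which specify position along the trunk, form a cluster on human chromosome 17 that spans chr17:48542655-48626358 from *HOXB2* to *HOXB9* (GRCh38). In the embryo HOX genes are expressed from the hindbrain to the tail and not in the forebrain.

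Of 15 fetal and pluripotency genes, 13 were higher in hCECs and 2 in rBMECs (13 and 1 of 14 without *POU5F1/Pou5f1*, which has numbered copies). As with the HOX genes, a member near 0 in rBMECs could pass the count filter only through hCECs. Much of this share was therefore set by the filter. The RNA-binding proteins *LIN28B/Lin28b* and *IGF2BP3/Igf2bp3*, present in fetal cells, stood at 56.9, 62.5 and 45.2 and at 57.3, 56.5 and 48.9 in hCECs and at or under 0.237 in rBMECs (-9.75 ± 0.57, adjusted p = 1.9e-06 and -8.25 ± 0.21, adjusted p = 1.4e-07). *IGF2/Igf2*, the fetal growth factor, varied within hCECs from 29.8 to 367 and stayed at or under 0.332 in rBMECs (log2 fold change -9.52 ± 0.98 (SE), adjusted p = 4.2e-05). *PRTG/Prtg* and *HMGA2/Hmga2* were higher in hCECs (-10.72 ± 0.34, adjusted p = 1.9e-07 and -5.50 ± 0.63, adjusted p = 7.8e-05), and the imprinted gene *MEST/Mest* was higher in rBMECs (1.53 ± 0.45, adjusted p = 0.013), except without hCEC replicate 1 (1.46, call lost). Leaving out 1 library moved *LIN28B* to -11.02 (rBMEC replicate 4), *IGF2* to -8.33 (hCEC replicate 2) and *HMGA2* to -6.56 (rBMEC replicate 1). *NANOG/Nanog* was low in hCECs at 5.04, 6.29 and 8.78 and had no count in rBMECs. It has near-identical processed copies in the human genome, so its level is uncertain.

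**Figure D4:**
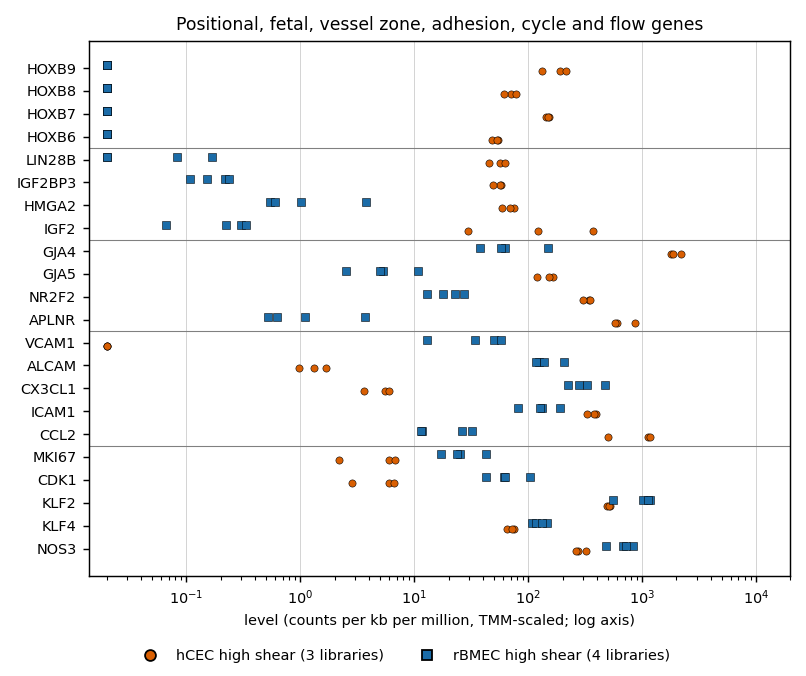
Levels of HOX, fetal, arterial, venous, adhesion, cell cycle and flow-induced genes in each high-shear library, on a log axis. They are scaled by gene length and TMM as in the text. Shown are 3 hCEC libraries (circles) and 4 rBMEC libraries (squares), with 0 drawn at the left edge. The 4 HOX genes are at 0 in rBMECs, *VCAM1* is at 0 in hCECs, and *MKI67* and *CDK1* are higher in rBMECs without overlap.

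Proliferation genes were higher in rBMECs in 16 of 22 and higher in hCECs in 2. *MKI67/Mki67*, the marker of cycling cells, stood at 25.2, 23.5, 42.6 and 17.3 in rBMECs and 5.98, 6.74 and 2.19 in hCECs (log2 fold change 2.43 ± 0.45 (SE), adjusted p = 0.0012), with rBMEC replicate 3 and hCEC replicate 3 at the ends of their ranges. *CDK1/Cdk1*, *RRM2/Rrm2* and *CCNB2/Ccnb2* were higher in rBMECs by log2 fold changes of 3.69, 2.86 and 2.64, while *MCM3/Mcm3* and *CCNB1/Ccnb1* were higher in hCECs (-1.34 ± 0.20, adjusted p = 3.1e-04 and -1.02 ± 0.38, adjusted p = 0.036). The call for *CCNB1* was lost without any 1 hCEC library (-1.14 to -0.94) and without rBMEC replicate 2 (-0.92) or 4 (-0.79) or gene length (-0.10). The flow-induced factors were present in both models. *KLF2/Klf2* stood at 519, 487 and 509 in hCECs, against 560.2, 1167, 1021 and 1114 in rBMECs and did not reach 2-fold (log2 fold change 0.91 ± 0.24 (SE), adjusted p = 0.0078), nor did *KLF4/Klf4* (0.81 ± 0.12, adjusted p = 3.8e-04), but *KLF2* did without rBMEC replicate 1 (1.10) and *KLF4* without gene length (1.08). Of 16 genes that flow is known to induce, 4 were higher on each side, with counts of 6 in rBMECs and 4 in hCECs without rBMEC replicate 1 and of 8 and 3 both without gene length and at low shear. The inhibitory SMAD gene *SMAD6/Smad6*, the quinone reductase gene *NQO1/Nqo1* and *ASS1/Ass1*, of arginine synthesis, were higher in rBMECs (3.84 ± 0.26, adjusted p = 4.4e-06, 2.44 ± 0.47, adjusted p = 0.0016 and 5.19 ± 0.55, adjusted p = 4.8e-05) and *THBD/Thbd*, or thrombomodulin, in hCECs (-2.37 ± 0.18, adjusted p = 7.3e-06).

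Basement membrane genes split evenly, with 5 of 16 on each side, or 3 in rBMECs and 5 in hCECs without gene length. Fibronectin, *FN1/Fn1*, stood at 9519.5, 3562, 3670.3 and 4055 in rBMECs and 1416, 1298 and 1380.3 in hCECs, highest in rBMEC replicate 1 (log2 fold change 1.91 ± 0.40 (SE), adjusted p = 0.0026), and *LAMA4/Lama4*, *COL4A1/Col4a1* and *SPARC/Sparc* were higher in rBMECs (1.59 ± 0.22, adjusted p = 2.1e-04, 1.42 ± 0.16, adjusted p = 7.0e-05 and 1.37 ± 0.15, adjusted p = 7.0e-05). Without gene length *COL4A1* and *SPARC* fell under 2-fold (0.50 and 0.94). The proteoglycan agrin, *AGRN/Agrn*, which is a component of the brain vascular basement membrane, and the nidogens *NID1/Nid1* and *NID2/Nid2* were higher in hCECs (-1.98 ± 0.22, adjusted p = 6.8e-05, -1.60 ± 0.15, adjusted p = 2.7e-05 and -2.49 ± 0.24, adjusted p = 3.0e-05). Of 22 genes often used as references, 7 were higher in rBMECs and 3 in hCECs, and without gene length the counts were 3 and 3, so that part of these calls rested on the lengths in the annotations. *ACTB/Actb* was higher in hCECs (-1.65 ± 0.21, adjusted p = 1.5e-04), while *PPIA/Ppia* was higher in rBMECs only with length (1.53 with and -0.24 without it).

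Over all genes, the 12 largest differences in each direction were of genes with no or almost no count in 1 of the models. Upward, all 12 were at 0 in every hCEC library, and 5 of them, *RPS18/Rps18*, *CLIC1/Clic1*, *IFI27/Ifi27* and *PPP1R18/Ppp1r18* included, have numbered copies. *EIF4A1/Eif4a1* and *MTPN/Mtpn*, which most cells express, have no numbered copies but were also listed at 0 in the hEC and hBMEC-like libraries under high shear, and each overlaps another gene of the human table (*SENP3-EIF4A1* and *LUZP6*), so no fold is given for these 7 genes. *SPP1/Spp1*, encoding the secreted protein osteopontin, stood at 4755, 1720.2, 2594 and 1482 in rBMECs, highest in replicate 1, and was at least 13542-fold higher in rBMECs. It was present in hBMEC-like cells at a mean of 655. *PKP1/Pkp1*, or plakophilin 1, was at 606 in rBMEC replicate 1 and at 37.6 to 57.2 in the other 3, and the aldehyde dehydrogenase *ALDH3A1/Aldh3a1* ranged from 105 to 551. *CD48/Cd48*, a surface protein of leukocytes and endothelium, stood at 172, 316, 351 and 381, and the last was *ATP10A*.

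Downward, *HAPLN1/Hapln1*, a link protein of hyaluronan, the collagenase *MMP1/Mmp1* and the ribonuclease *RNASE1/Rnase1* had no count in rBMECs. They had mean levels of 309 ± 87.3, 529 ± 203 and 1103 ± 195 in hCECs (SD, n = 3). Rat *Rnase1* has close relatives in the genome, which makes its 0 uncertain. The sodium channel *SCN9A/Scn9a*, the potassium channel *KCNK3/Kcnk3*, *MAGEA4/Magea4* and *NRG3/Nrg3* were also at 0 in rBMECs, with hCEC means of 78.1, 125, 141 and 20.9, as was *HOXB9*. *LAPTM5/Laptm5*, a lysosomal protein known from blood cells, stood at 439, 405 and 638 in hCECs and had 2 counts in a single rBMEC library. The broadly expressed genes *RYBP/Rybp*, *CALCOCO2/Calcoco2* and *SRSF8/Srsf8* were listed at 0 in all 4 rBMEC libraries, and no fold is given for them.

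The low-shear libraries gave the same comparison in chips that were not used above. They are not independent of the high-shear libraries, since the study paired the shear levels within an isolation or differentiation and the hCECs came from the same cell line. Of 12506 genes, 2963 (23.7%) were higher in rBMECs and 3252 (26%) in hCECs. Of 6907 genes called at high shear and tested at low shear, 5530 (80.1%) were called in the same direction and 4 in the opposite one. Brain endothelial lists gave 73 and 45 of 208. hCEC low-shear replicate 2 stood apart, with 9790999 counts spread over 36388 genes against 20122 and 20297 genes in the other hCEC low-shear libraries. Without it the lists gave 88 and 48 of 208.

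Most key genes kept their direction at low shear without that library, among them *SLC7A5* (log2 fold change 6.61), *JAM2* (6.97), *NKD1* (7.51), *VWA1* (10.62), *AXIN2* (-4.03), *JAM3* (-3.50) and *PLVAP* (-9.57). *FOXQ1* had no count and *FOXF2* 0 and 1 counts in the other hCEC low-shear libraries. *ABCG2* was closer together, with -1.78 at high and -0.32 at low shear. Others changed sign, *ICAM1* from -1.48 to 0.29, *CYP1B1* from -1.04 to 0.10 and *LEF1* from -0.60 to 1.29, and *SLC2A1* had -0.31 at high and -1.10 at low shear. Whether the differences between models depend on shear was not tested.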

How the data were processed

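PolyA-selected RNA was sequenced paired-end, and the authors aligned reads with STAR and counted them per gene with featureCounts. The deposited values are whole-number counts, in 1 table for the rat and several for the human libraries, each with gene lengths. The paper names a rat genome build for rBMECs, whereas the labels name hg38 for every library. Low-shear libraries of both models are labelled 0.1 dyne/cm2. The paper states a higher level for low shear, and which of them applied cannot be settled here. The labels give 4 rBMEC replicates and number them like the hCEC replicates. The edgeR p-values set the difference between the groups against the spread between libraries of a group, which may be partly technical in rBMECs.

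Genes were matched by their upper-case symbol, 16513 of 33289 rat and 43382 human genes. Counts were fitted with edgeR 4.0.16 (R 4.3.3) by the quasi-likelihood test on the 7 high-shear libraries, unpaired, with offsets of gene length and TMM-scaled totals, after filterByExpr with minimums of 10 counts and 15 in total. P-values were adjusted over all 12355 genes by the Benjamini–Hochberg method, and a call needed an adjusted p under 0.05 and at least 2-fold. Standard errors are the log2 fold change over the square root of F. The low-shear libraries were fitted in the same way, and values across 26 libraries come from a scale set over all of them. Totals of 25727387 to 32385661 counts limit precision for genes with few counts, and a group without counts was set to 3 counts per library for a fold given as a lower bound. P-glycoprotein was tested by exact permutation, since its genes had no matching symbol and were not in the fit. With 4 against 3 libraries this test cannot give p below 0.0286. On simulated data, judged by an adjusted p under 0.05 without the 2-fold limit, the fit recovered 53% of 2-fold and 87% of 4-fold changes. There were 7 false calls of 147 among 12139 genes. Only 100 genes were changed at each fold, far fewer than were called here, so these rates do not carry over to the calls above.

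The members and the 32 gene lists were chosen with earlier results of these data known. Named were 46 panel genes, up to 4 called members of a list in each direction with a mean level of at least 5, the 12 largest and 12 smallest called differences with a mean level of at least 20, the same direction without length and lengths within 3-fold, and brain endothelial genes of at least 5 in one model and under 0.5 in the other. *SLCO1A2*, *SLC3A2*, *ACE*, *FOXC1*, *TJP1*, *HOXB2*, *HOXD8*, *PROX1*, *IGF2BP3*, *HMGA2*, *POU5F1*, *KLF2*, *KLF4*, *IFIT2*, *IFIT3*, *AGER*, *MYH11* and the near-absent markers of other cells were named outside that rule, after their values were seen, and some genes the rule named are not reported here. DESeq2 1.42.0, limma 3.58.1 and other normalizations, filters and samples were run as alternatives. Those on numbered copies, on genes near 0 in a species and leaving out single libraries for P-glycoprotein were added after seeing the data. Sequences were not used here.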

Additional observations from a re-analysis of the deposited data

Results flagged for a closer look

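Among the genes named above, levels of 28 genes had 1 rBMEC library far from the other 3 by Dixon's criterion for 4 values, which chance passes in about 5% of groups. In 20 of them that library was replicate 1. The number of genes screened and the share over all genes tested are not given here, so that the 28 and the 20 cannot be set against that 5%. It was highest for the extracellular matrix genes *FN1* (9519.5 against 3562 to 4055) and *COL1A1* (149 against 17.8 to 36.4), for the receptors *TFRC* (143 against 52.4 to 57.1) and *IGF2R* (73 against 23.5 to 25.4), and for the carriers *SLC40A1* (403 against 223 to 244), *SLC6A9* (29.9 against 4.06 to 7.14), *SLC39A14* (8.28 against 1.72 to 2.37), *MFSD2A* (8.25 against 3.07 to 3.43) and *FABP5* (32.8 against 8.67 to 11.2). It was also highest for *PKP1* (606 against 37.6 to 57.2), *CYP1B1* (509.8 against 219 to 254), *PACSIN3* (20.2 against 8.96 to 10.3) and *HMGA2* (3.76 against 0.543 to 1.02). It was lowest for the endothelial genes *PECAM1* (979 against 2161 to 2332), *ESAM* (228 against 575 to 613), *SOX17* (187 against 306 to 319), *FOXL2* (33.9 against 42.6 to 43.4), *FZD6* (169 against 368 to 406) and *TSPAN12* (25.8 against 35.4 to 37.1), and for *PPP1R18* (162 against 216 to 222). Replicate 3 was highest for *LYVE1* (7.55 against 2.51 to 2.98) and *HOPX* (1.84 against 0.613 to 0.673). Replicate 4 was highest for *CD68* (6.78 against 3.93 to 4.24). The remaining 5 were near 0 in every rBMEC library, with *SLC22A8* at 0.396, *DCN* at 0.116, *RBFOX3* at 0.177, *LAPTM5* at 0.114 and *GAD1* at 0.0254 in the library apart.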

How the results depend on the processing

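The number of genes called, 7031 as reported, moved beyond 1.5-fold only when genes were restricted to lengths within 1.5-fold of each other, to 3961 (2078 higher in rBMECs and 1883 in hCECs), since fewer genes were tested. The other alternatives gave 5843 (glmTreat) to 9741 (adjusted p alone), with DESeq2 at 7040, limma-trend at 6771, no gene length at 6460 and numbered copies left out at 6697. Leaving out single libraries gave 6821 to 7094 calls (3410 to 3588 higher in rBMECs and 3364 to 3567 in hCECs). At low shear, with 6215 calls, it gave 5804 to 7068, the highest without hCEC replicate 2. The log2 difference of P-glycoprotein, 10.57, ranged from 10.20 to 10.78 without single libraries and was 10.82 without length scaling and 10.53 with library totals. The replicate numbers did not pair the libraries, since no deviation of an hCEC replicate correlated with that of an rBMEC replicate beyond 0.0544, and the replicate block gave 6760 calls (3415 and 3345). Under it 7 of the named genes, among them *CLDN5* (1.96), lost their call. Of 212 named genes, 9 reversed in at least 1 alternative. Low shear reversed *ASS1* (-0.21), *CCNB1* (0.0886), *CYP1B1* (0.22), *ICAM1* (0.37), *LEF1* (1.35), *MEST* (-0.47) and *SLC38A5* (-0.0608), for *ASS1* and *SLC38A5* not without hCEC replicate 2 (5.53 and 2.96). Leaving out gene length reversed *PACSIN2* (0.0203) and *PPIA* (-0.24). The cause was not tested. Of 4763 values of named genes under alternatives, 4617 kept their side of the call limits, 113 lost the call and 24 gained it, and 22 of the losses came at low shear. The 4617 include 15 values of uncalled genes whose sign changed, those of *APCDD1* and *KLF2* without gene length among them. With 3 and 4 libraries, 53% of simulated 2-fold changes passed the adjusted p alone, without the 2-fold limit that a call also needs. A missed call at that size therefore does not show likeness.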
